A study of Mus musculus with 6 samples.

Results

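The comparison described here sets a mouse embryonic stem cell line that carries a shortened DNMT1 against a line that carries the full-length protein, both at the end of a differentiation course (day 7). It uses 2 of the 6 arrays of the series, chosen by the form of DNMT1 and the day in their titles, with 1 array for each line. Of 18193 genes that a probe set names alone, 13277 had a mean signal over the 6 arrays at or above a floor and are called measured. The other 4 arrays, 1 for each line at days 0 and 4, are used only to show whether a difference at day 7 was also there earlier.

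Both lines are triple knockouts of Dnmt1, Dnmt3a and Dnmt3b, so the shared background lacks all of the cell's own active DNA methyltransferases. Into this background a DNMT1 was placed that is expressed everywhere in the cell population, complete in the full-length line and without the first 602 amino acids in the deletion line. Day 0 cells were stem cells in medium with 10% fetal bovine serum and leukaemia inhibitory factor (LIF). By day 4 the cells had been embryoid bodies for 1 day and attached to the plate for 3 days, all without LIF. By day 7 they had spent 3 more days in medium with 10% knockout serum replacement (KSR) and Activin A at 10 ng/ml, which acts through the receptors of Nodal and was meant to bring on the primitive streak. Each form of DNMT1 was carried by 1 line, so the protein and the line cannot be told apart. Nothing in the labels says that a culture was repeated, so every difference below is that of 2 arrays, without a replicate check and without a test. The sample that the title calls deletion line, day 0 is described as differentiated cells in its source label, and the title was followed.

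DNMT1 copies the methylation of cytosines next to guanines (CpG sites) onto the new strand after DNA replication, and DNMT3A and DNMT3B set it anew. The N-terminal part of DNMT1 holds its binding sites for partner proteins and a domain that targets it to replication foci, ahead of the catalytic domain. In mouse development this methylation is known for keeping germ cell genes and 1 copy of imprinted genes silent and for restricting access to the trophoblast lineage.

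Levels are log2 MAS5 signals, scaled by the authors so that each array has about the same mean, and the floor is a log2 signal of 5.37. Differences are given as deletion line minus full-length line, also on the log2 scale, where 1 is 2-fold. A gene counts as higher or lower where the 2 arrays are at least 2-fold apart. Where an array lies at the floor, the difference is a lower bound and is written as at least that size. Of the measured genes, 12812 lay above the floor on the full-length day 7 array and 12603 on the deletion day 7 array. The number of arrays limits the precision of every value.

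The Dnmt1 probe set with the highest signal read 8.91 (full length) and 8.94 (deletion) at day 7, a difference of 0.03. The other Dnmt1 probe sets differed by 0.01 and -0.01. Dnmt3b read 8.23 and 8.75 (difference 0.52, and 0.25 at its other probe set), although its gene is knocked out in both lines. All 5 probe sets of Dnmt3a had mean signals under the floor. No probe set was placed on the knocked-out exons or on the introduced DNMT1, and these signals are therefore no check of the labels.

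At day 7 more genes were lower than higher in the deletion line. Of 13277 measured genes, 524 (3.95%) were at least 2-fold higher and 1184 (8.92%) at least 2-fold lower. At least 4-fold apart were 56 higher genes (0.422%) and 175 lower genes (1.32%). Thus 30.7% of the genes 2-fold apart were higher, and with the arrays shifted to equal medians over the measured genes the share was 41.1%. The median difference over all measured genes was -0.05 and the median of its size was 0.37, against sizes of 0.29 at day 0 and 0.26 at day 4. At day 0, 418 genes were 2-fold higher (3.15%) and 375 lower (2.82%), and at day 4, 323 were higher (2.43%) and 470 lower (3.54%). The levels of the 2 lines correlated over the measured genes, which are no replicates, with r of 0.951 at day 7 and 0.974 at both earlier days.

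**Figure D1:**
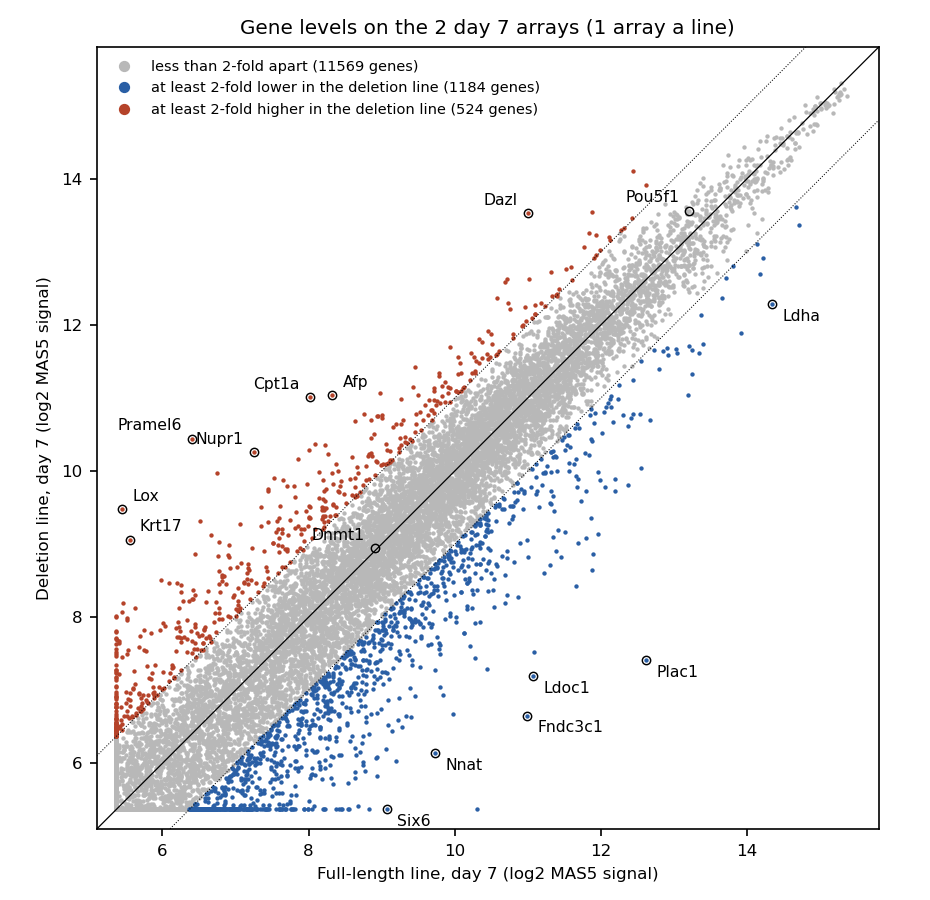
Level of each measured gene on the full-length day 7 array (horizontal, log2 MAS5 signal) against the deletion day 7 array (vertical, log2 MAS5 signal), 1 array a line, with 524 genes at least 2-fold higher in the deletion line in red, 1184 at least 2-fold lower in blue and the rest in grey. The solid line marks equal levels, the dotted lines mark 2-fold differences, circled genes are named, and the edges at the left and bottom are genes at the floor of 5.37.

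The excess of lower genes was found mainly among genes of low and middle signal. With the measured genes cut by mean level into 3 classes of equal size, 250 were higher and 624 lower in the lowest class, 170 and 419 in the middle class, and 104 and 141 in the highest class, and the median differences were -0.14, -0.07 and 0.0. Probe sets of the same gene read the same RNA and are not replicates, but they show how far a difference depends on the probes. Among the higher genes, 203 had another probe set above the floor, and in 161 of them (79.3%) all others differed in the same direction, in 66 (32.5%) all by at least 2-fold. Among the lower genes 477 had another probe set, with the same direction throughout in 402 (84.3%) and at least 2-fold in 187 (39.2%). No other probe set differed in the same direction in 20 higher and 42 lower genes.

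The genes that were apart at day 7 overlapped in part with those of the earlier days, which come from other arrays. Of the 524 higher genes, 68 were also higher at day 0 (13% of the day 7 genes and 16.3% of the day 0 genes) and 78 at day 4 (14.9% and 24.1%). Of the 1184 lower genes, 85 were also lower at day 0 (7.18% and 22.7%) and 178 at day 4 (15% and 37.9%). Over all measured genes 3.15% were higher at day 0 and 2.43% at day 4, and 2.82% and 3.54% were lower. Opposite directions were seen at day 0 for 33 higher and 48 lower genes, and at day 4 for 24 and 22. Less than 1.5-fold apart on both earlier days were 198 of the higher genes (37.8%) and 532 of the lower ones (44.9%). The share of all measured genes under this limit was not counted. Their median size of difference was 0.29 at day 0 and 0.26 at day 4, well under 1.5-fold. These 2 shares therefore do not mark the called genes as particular to day 7.

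The genes named first are those with the largest differences whose other probe sets, where there are any, all differ at least 2-fold in the same direction. Plac1, an X-linked gene of trophoblast cells, read 12.62 on the full-length array and 7.41 on the deletion array, 37.0-fold apart. In the full-length line it had read 5.37 and 9.29 at days 0 and 4, and in the deletion line 6.09 and 8.62, so the lines had differed by less than 2-fold until day 7. Fndc3c1 read 10.99 and 6.65 at day 7 (20.3-fold), Ldoc1, a gene derived from a retrotransposon, 11.07 and 7.19 (14.7-fold), and Nnat, an imprinted gene of neural and endocrine cells, 9.73 and 6.14 (12-fold). Six6, a homeobox gene of the eye and pituitary, read 9.07 on the full-length day 7 array and lay at the floor on the other 5 arrays, at least 13-fold apart. Prtg, which encodes the surface protein protogenin, read 11.09 and 7.52 (11.9-fold, with its other probe sets at -2.99 and -2.11). Wls, the cargo receptor that Wnt proteins need for secretion, read 10.44 and 7.29 (8.88-fold, others -3.0 and -1.76). Lpl, which encodes lipoprotein lipase, read 11.66 and 8.43 (9.38-fold, other -2.14), and had differed by -0.18 and -0.12 at days 0 and 4. Car3, Sbsn, Gstt1 and Vav3 differed by -3.31, -3.24, -3.17 and -3.12, and Spon1 and Gpm6a by at least 3.18 and 3.17 in size.

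The higher genes were named by the same rule. Lox, which encodes the enzyme that cross-links collagen, read 5.45 on the full-length array and 9.48 on the deletion array (16.3-fold, and 3.46 on the log2 scale at its other probe set). Pramel6, a gene of the preimplantation embryo, read 6.41 and 10.44 (16.3-fold, other probe set 1.98), and its relatives Pramel18 and Pramel7 differed by 2.73 and 2.41. Probe sets of near-identical family members can read each other's transcripts, which was not examined here for the Pramel, Magea, Nlrp4, Usp17, Rhox, Serpinb9 or globin genes. Krt17, a keratin of stratified epithelia, read 5.55 and 9.06 (11.4-fold). Nupr1, a stress-induced chromatin protein gene, read 7.25 and 10.26 (8.06-fold, other 2.55), and Cpt1a, which lets fatty acids enter mitochondria, 8.02 and 11.01 (7.94-fold, others 1.00 and 1.2). Afp, which encodes alpha-fetoprotein, read 8.32 and 11.04 (6.59-fold, others 2.50 and 2.65). Dazl, a germ cell RNA-binding protein gene, read 11 and 13.53 (5.78-fold, other 2.92). Gkn2, Msc, Krtdap, Msln and Akr1cl differed by 2.80, 2.62, 2.53, 2.49 and 2.48, and Magea6 and Hhip by at least 2.64 and 2.63.

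Genes at least 4-fold apart at day 7 and less than 1.5-fold apart at days 0 and 4 were counted where the brighter day 7 array was at least 4 times the floor, leaving out unnamed gene models, and 44 lower and 11 higher genes met this. The lower ones included Elf5, Six6, Lpl, Sbsn, Spon1, Gstt1, Vav3 and Hbb-y, and Pygl, the glycogen phosphorylase of liver (9.28 and 6.49), and Adcy7, an adenylyl cyclase (9.33 and 6.65). The higher ones included Afp, Magea6, Hhip, Akr1cl, Pramel7, Gpnmb and Tbx3, and also Cyp3a13 and Ifi47, which lay at the floor on the full-length day 7 array and read 7.79 and 7.63 on the deletion array. Some genes were near the floor on 5 arrays and clearly above it on 1. On the full-length day 7 array these were Six6, Elf5, Serpinb9g (8.30), Serpinb9c (7.30) and Aldh1a7 (7.64). On the deletion day 7 array they were Magea6 (8.01), Akr1cl (7.99), Cyp3a13, Ifi47 and Ttn (7.52), whose other probe set differed the opposite way by -0.80. Of 24 genes 2-fold higher at both days 0 and 4, 10 were also higher at day 7 (41.7%), among them Nupr1, Cpt1a, Malat1, Mavs and Spink1. Of 44 genes lower on both earlier days, 13 were also lower at day 7 (29.5%), among them Wnt4, Pcdh8 and Prickle1. These names were picked from the 10 and 13 after their values were seen. As many genes, 10, were higher at day 7 after being lower on both earlier days, and 1 was lower after being higher on both.

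**Figure D2:**
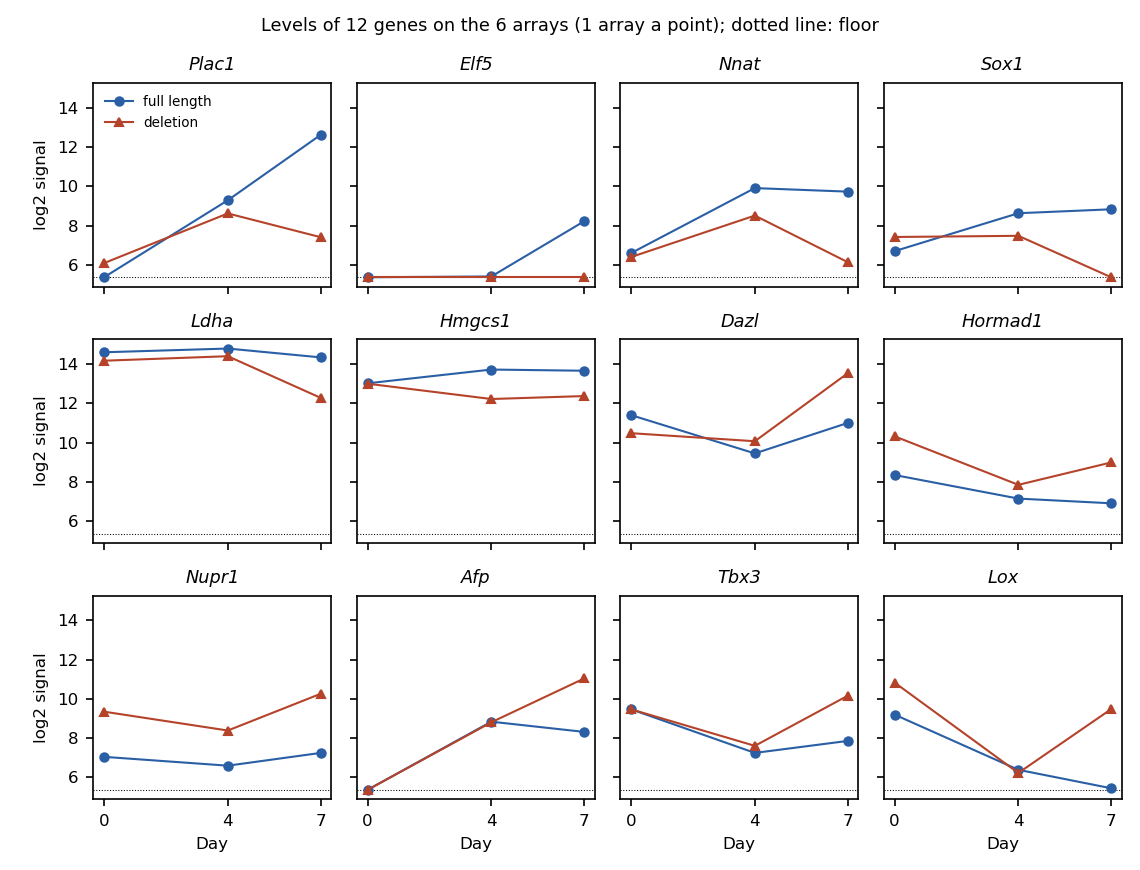
Levels of 12 genes (log2 MAS5 signal, vertical) at days 0, 4 and 7 (horizontal) in the full-length line (blue circles) and the deletion line (red triangles), 1 array a point, with the floor of 5.37 as a dotted line. At day 7 Plac1, Elf5, Nnat, Sox1, Ldha and Hmgcs1 are lower in the deletion line, and Dazl, Hormad1, Nupr1, Afp, Tbx3 and Lox are higher.

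Gene lists were then read, each against the shares over all measured genes, 3.95% higher and 8.92% lower. The lists hold 1094 entries, of which 988 were named on the array and 885 were measured. Shares of short lists are coarse, and a gene can stand in more than 1 list.

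**Figure D3:**
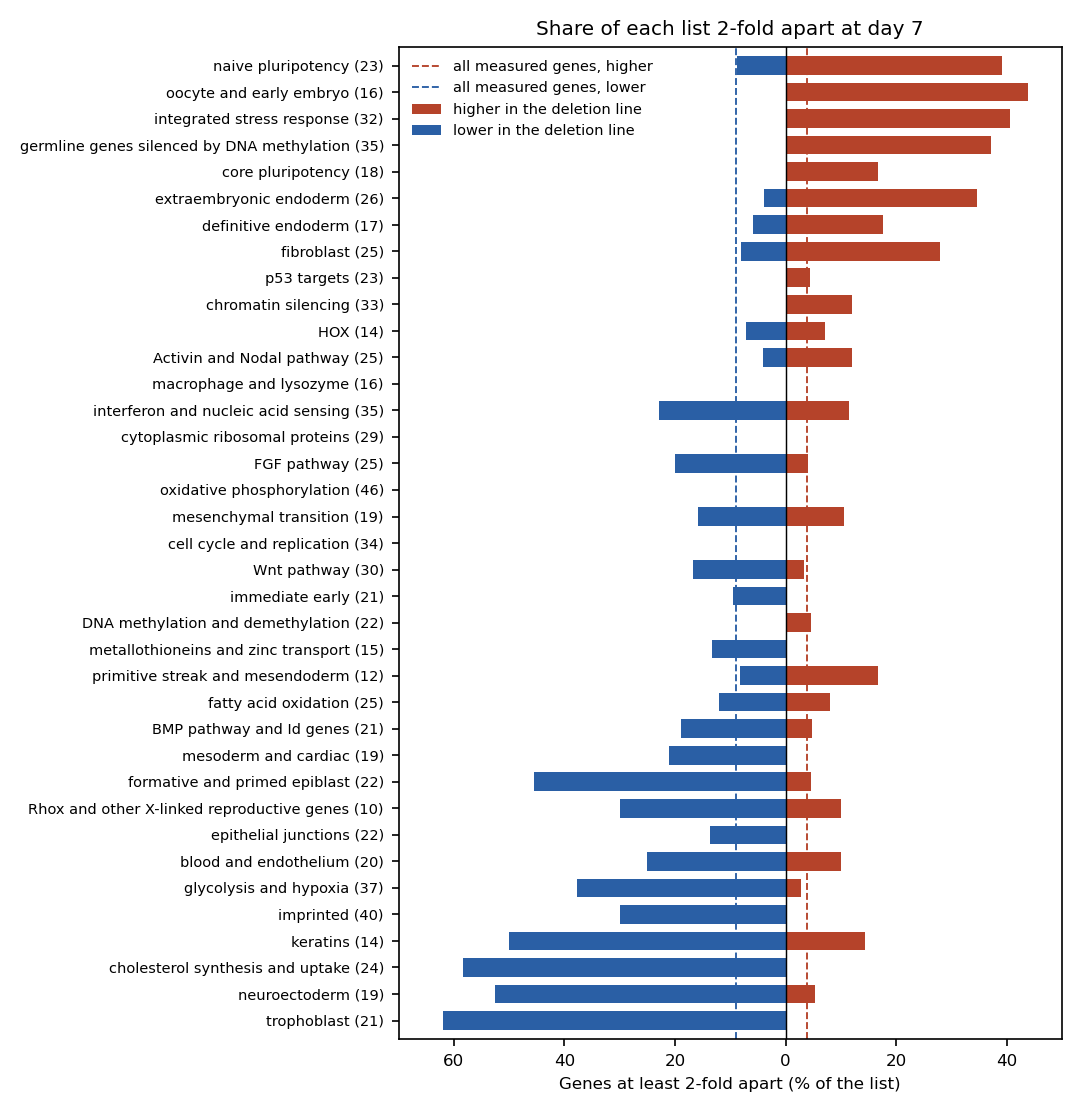
Share of the measured genes of each of 37 lists (number of measured genes in brackets) that were at least 2-fold higher (red, to the right) or lower (blue, to the left) in the deletion line at day 7, in percent, ordered by the list's median difference. Dashed lines mark the shares over all measured genes, 3.95% higher and 8.92% lower; the trophoblast, neuroectoderm and cholesterol lists reach furthest to the left, and the oocyte, stress response, naive pluripotency and germline lists furthest to the right.

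The cells on both day 7 arrays carried high signals of pluripotency genes. Pou5f1, which encodes OCT4, read 13.21 and 13.56, Nanog 13.36 and 13.94, Sox2 12.78 and 13.52 and Zfp42 (Rex1) 13.74 and 14.32 in the full-length and the deletion line. None of the 6 stem cell markers, which also include Esrrb and Klf4, was 2-fold apart, and all of them were a little higher in the deletion line. RNA was taken from whole cultures, so fewer cells of a type and less RNA per cell cannot be told apart here or in any group below. Of 4 streak markers, T was not among the genes named on the array and was not read. The other 3 were low. Mixl1 and Gsc had mean signals under the floor, and Eomes read 7.23 and 7.92, with a difference of 1.28 at its other probe set.

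In the core pluripotency list 17 of 18 measured genes were above 0 and 3 were at least 2-fold higher, with a list median of 0.58. The 3 were Dppa2, a chromatin factor of early embryos (11.84 and 13.25), Foxd3, a forkhead factor (7.90 and 9.21), and Rif1, a replication timing factor (12.32 and 13.32). Of 23 naive pluripotency genes 9 were higher (39.1%) and 2 lower, with a median of 0.82. Tbx3, a T-box factor, read 7.86 and 10.16 (4.92-fold), and its other probe set differed by 1.91. Its level in the deletion line at day 7 exceeded the 9.47 that both lines had at day 0. Pecam1, an adhesion molecule of stem cells and endothelium, read 8.63 and 10.68, Klf5 10.33 and 11.80, Prdm14 9.06 and 10.37, and Nlrp4c 7.97 and 9.45. Nr5a2, Fbxo15, Jam2 and Dppa3 made up the 9, with differences of 1.31, 1.30, 1.15 and 1.04. Gbx2, a homeobox gene downstream of LIF, went the other way, from 8.28 to 6.34 between the lines, as did Socs3, the feedback inhibitor of LIF signalling (-1.06). The naive list's median had been -0.14 at day 0 and 0.81 at day 4, so the line difference at day 7 was about that at day 4. The core list moved from -0.30 and 0.09 at days 0 and 4.

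Genes of the formative and primed epiblast were lower in the deletion line in 10 of 22 cases (45.5%) and higher in 1, Foxd3. Trh, which encodes thyrotropin-releasing hormone, read 11.69 and 9.01 (6.41-fold), and Dusp6, a phosphatase that ERK signalling induces, 12.05 and 9.78 (4.82-fold). Sox4 read 12.67 and 10.69, with its 5 other probe sets between -1.96 and -1.39, Pou3f1 (OCT6) 10.13 and 8.63, and Fgf5 9.21 and 7.80. The list's median was -0.43, because the other genes lay near or above 0: Otx2 differed by 0.42, Etv4 by 0.60 and Lef1 by 0.88. Among FGF pathway genes 5 of 25 were lower (20%) and 1 higher, with a median of -0.08. Beside Dusp6 and Fgf5 these were Dusp4 (8.85 and 7.26), Il17rd, a membrane antagonist of FGF receptors (10.78 and 9.34), and the receptor gene Fgfr2 (9.63 and 8.19).

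Of the Activin and Nodal pathway, 3 of 25 genes were higher (12%) and 1 lower. The ligand gene Nodal read 10.51 and 11.40, a difference of 0.89. Lefty1 and Lefty2, secreted Nodal inhibitors that the pathway itself induces, read 11.88 and 13.54, and 10.72 and 12.62, which is 3.16-fold and 3.73-fold higher in the deletion line. The other higher gene was Pmepa1, a feedback inhibitor (8.33 and 9.54, but 0.34 at its other probe set). Fst, which encodes the Activin-binding follistatin, was lower (8.58 and 7.5). At day 4 the directions had been reversed for Lefty1 (-1.92), Lefty2 (-1.26) and Pmepa1 (-1.02). The receptor and SMAD genes were less than 2-fold apart, Smad3 at -0.81 being the furthest, with its other probe set at 0.15. In the BMP list 4 of 21 genes were lower (19%) and 1 higher. Id1, Id2 and Id3, direct targets of BMP signalling, differed by -1.03, -1.45 and -1.38, Bmp8b by at least 1.79 in size, and the antagonist gene Grem1 by 1.43. In the Wnt list 5 of 30 were lower (16.7%) and 1 higher: the secreted inhibitor Sfrp2 (9.84 and 6.93), Rspo1, Fzd2, Dkk3 and Wnt4 were lower, and Notum, which inactivates Wnt ligands, was higher (8.21 and 9.73). Dkk3 and Wnt4 each had another probe set near 0, at -0.02 and -0.05.

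Genes of endoderm were higher more often than lower. In the extraembryonic endoderm list 9 of 26 genes were higher (34.6%) and 1 lower, with a median of 0.50. Afp was among them. Ttr, the carrier of thyroid hormone, read 7.35 and 9.24 with 3 other probe sets between 1.15 and 1.68, and the uptake receptor Cubn 6.81 and 8.49. Apom, Apoa1 and Apob differed by 1.55, 1.2 and 1.17, Thbd by 1.94, Lama1 by 1.09 and Dab2 by 1.07. The protease gene Plat was lower (-1.17). In the definitive endoderm list, which shares 5 genes with it, Foxa2, Ttr and Spink1 were higher and Krt19 lower, of 17. Foxa2, a forkhead factor of endoderm and node, read 6.36 and 8.22, and was already apart by 1.46 at day 4. Sox17 read 8.38 and 9.19, a difference of 0.81, and Cxcr4 6.42 and 6.17. The primitive streak list had 12 measured genes, of which Foxa2 and Evx1 were higher and Hes7 lower, all 3 within 1 log2 unit of the floor on the dimmer array.

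Trophoblast genes showed the largest share of lower genes of all 37 lists. Of 21 measured genes 13 were lower (61.9%) and 0 higher, with a median of -1.44. Elf5, a factor that DNA methylation silences in embryonic lineages and that maintains trophoblast stem cells, read 8.22 on the full-length day 7 array and lay at the floor on the deletion array. Gata3 read 8.01 and 6.47, Ascl2, an imprinted factor of the spongiotrophoblast, 9.80 and 7.62 with 2 other probe sets at -2.72 and -2.04, and Ets2 differed by -1.09. The homeobox genes Rhox6 and Rhox9 read 12.37 and 9.81, and 11.79 and 9.08. Sct, which encodes secretin, read 11.30 and 8.71, and Peg10, a retrotransposon-derived imprinted gene that the placenta needs, 8.73 and 6.28. Not every trophoblast regulator was lower by 2-fold: Tfap2c read 11.62 and 11.42, Cdx2 5.93 and the floor. Tead4 and Eomes were higher by 0.76 and 0.69, and the other Eomes probe set by 1.28. The median level of the list's genes was 6.96 at day 0 and 9.80 at day 7 for full-length cells, against 6.72 and 8.19 for deletion cells.

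The keratins of simple epithelia, 3 of which also stand in the trophoblast list, differed in the same direction. Krt7 read 11.87 and 9.35, Krt19 12.55 and 10.04, Krt8 14.17 and 12.70 and Krt18 14.22 and 12.92. Of 14 keratins 7 were lower (50%) and 2 higher, Krt17 and Krt16, which stratified epithelia use. The list's day 4 median was -0.88, near the -0.98 of day 7. Of 22 genes of epithelial junctions 3 were lower (13.6%), Prss8, Marveld3 and Cldn3, and Cdh1, which encodes E-cadherin, differed by 0.05.

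Among imprinted genes 12 of 40 were lower (30.0%), 0 were higher, and 30 lay below 0, with a median of -0.77. Beside Nnat, Peg10 and Ascl2 these were Sgce (10.68 and 8.19), Phlda2 (11.39 and 8.91) and Cdkn1c (12.19 and 9.89), the latter pair maternally expressed restraints on placental and embryonic growth. The growth factor gene Igf2 differed by -2.02, Sfmbt2 by -2.10, Plagl1 by -1.26, Ndn by -1.24 and Peg3 by -1.21. The list's median was -0.06 at day 0 and -0.33 at day 4. In normal cells imprinted genes are read from 1 parental copy. Whether this holds in these knockout lines was not measured, and the arrays do not tell the copies apart.

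Neuroectoderm genes were lower in 10 of 19 cases (52.6%), with a median of -1.09. The neural factor Sox1 read 8.83 in the full-length line and lay at the floor in the deletion line, at least 11-fold apart, but its dimmer probe set differed by -0.92. Irx3 read 10.27 and 7.44, Sox11 10.71 and 8.30 with 5 other probe sets between -3.34 and -2.01, Pax6 9.01 and 7.83, and Map2 7.97 and 6.71. Tubb3, a tubulin of neurons, was the 1 higher gene, at 8.94 and 10.12. Mesoderm and cardiac genes were lower in 4 of 19 cases (21.1%) and higher in 0. All 4 are contractile genes: Cnn1 (8.67 and 5.42), Myl4 (9.70 and 8.09), Tagln (11.56 and 10.00) and Acta2 (12.23 and 10.98). The mesoderm factors Hand1, Isl1 and Tbx20 differed by -0.50, -0.40 and -0.57. Foxf1 (5.88 and 6.44) and Gata4 (6.04 and 6.59) went the other way, by 0.56 and 0.55. Of the 19 genes 5 lay above 0 and 14 below. In the blood and endothelium list 5 of 20 were lower (25.0%) and 2 higher. The embryonic globins Hbb-y and Hbb-bh1 read 8.92 and 6.07, and 7.26 and 5.41, after values on the 2 lines that differed by 0.14 and -0.22 at day 4. The VEGF receptor gene Flt1 (7.63 and 5.59), the blood factor Lmo2 (7.06 and 5.62) and Cdh5 (7.82 and 6.75) were also lower. The 3 endothelial markers were thus split, with Cdh5 lower and Tek and Pecam1 higher.

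**Figure D4:**
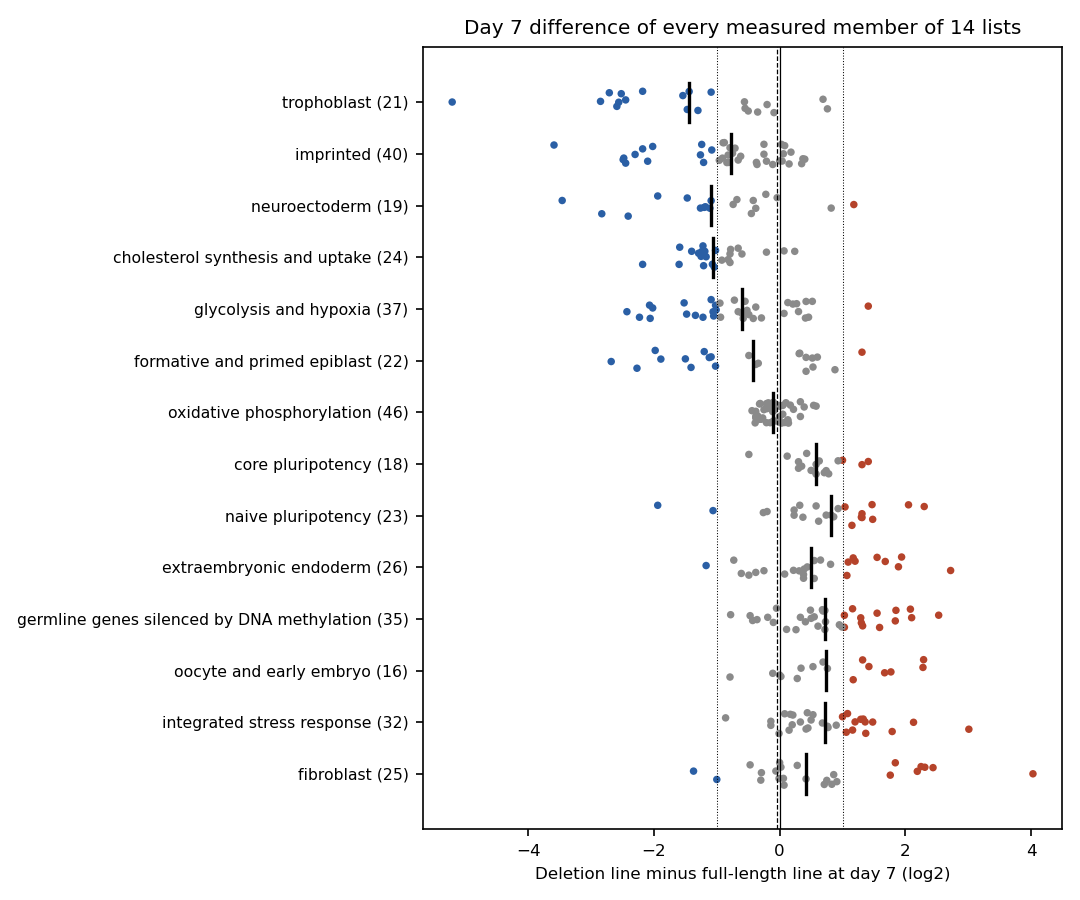
Day 7 difference, deletion line minus full-length line (log2, horizontal), of every measured member of 14 lists (number in brackets), 1 point a gene, red where at least 2-fold higher, blue where at least 2-fold lower and grey otherwise. Black bars are list medians, from -1.44 for trophoblast to 0.82 for naive pluripotency; the dashed line is the median of all measured genes, -0.05, and the dotted lines are 2-fold differences.

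Germ cell genes whose promoters DNA methylation is known to silence in other cells were higher. Of 35 measured genes 13 were higher (37.1%), 0 lower, and 28 lay above 0, with a median of 0.72. Beside Dazl, Slc25a31, the ATP carrier of sperm mitochondria, read 8.97 and 11.07 (4.29-fold), and Hormad1, a protein of the meiotic chromosome axis, 6.91 and 8.99 (4.23-fold). Magea5 read 8.85 and 10.70, Stk31 7.98 and 9.82 and the meiotic cohesin Smc1b 8.60 and 10.19. Tex19.2, Taf7l, Tex19.1, Tex14, Sycp3, Ddx4 and Meioc differed by 1.55, 1.32, 1.30, 1.29, 1.16, 1.03 and 1.03. Among the others, Stra8, the gene of meiotic entry, differed by -0.05, Sycp1 by 0.68 and Mael by 0.69. The list was on the other side at day 0, with 1 gene higher, 7 lower and a median of -0.68, and near 0 at day 4 (median 0.03). Hormad1 differed by 1.97, 0.70 and 2.08 at days 0, 4 and 7, whereas Smc1b was lower at day 0 (-2.14). The germ cell markers Dazl and Ddx4 were thus higher and Prdm1, a factor of primordial germ cells and of other lineages, was less than 2-fold apart (8.95 and 9.43).

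The promoters of these genes are shown because CpG content and 2 short motifs, the E-box CACGTG and the E2F6-type motif GCGGGAA, are often discussed for germline genes that are silenced through methylation and through an E2F6-containing Polycomb complex. RefSeq promoters (GRCm38.p6, 250 bases before to 50 after the start) were given for 31 of the 35 measured genes, and a gene counts where any of its promoters holds the motif on either strand. The median number of CpGs per 300 bases was 18 in the list, 22 in its 13 higher genes, 21 over the 10709 measured genes with a promoter and 8 over all 27025 genes with a promoter. CACGTG was found in 11 of 31 (35.5%) and in 6 of the 13 higher genes (46.2%), against 11.6% of the measured and 8.09% of all genes. GCGGGAA was found in 8 of 31 (25.8%) and in 7 of the 13 (53.8%), against 9.52% and 5.29%. The higher genes as a whole showed no such excess. Over the 397 of them with a promoter the median was 15 CpGs, and 11.8% held CACGTG and 9.07% GCGGGAA. For genes less than 2-fold apart or too dim to count, these values were 22, 11.8% and 9.74%. The 3 members with the largest differences are printed 5′ to 3′ on the strand of the gene, with each CpG in capitals. They lie at chr17:50293571-50293870 on the minus strand (Dazl, 28 CpGs), chr3:40708621-40708920 on the plus strand (Slc25a31, 22 CpGs, 1 CACGTG and 1 GCGGGAA) and chr3:95559427-95559726 on the plus strand (Hormad1, 24 CpGs, 2 CACGTG and 1 GCGGGAA).
Dazl: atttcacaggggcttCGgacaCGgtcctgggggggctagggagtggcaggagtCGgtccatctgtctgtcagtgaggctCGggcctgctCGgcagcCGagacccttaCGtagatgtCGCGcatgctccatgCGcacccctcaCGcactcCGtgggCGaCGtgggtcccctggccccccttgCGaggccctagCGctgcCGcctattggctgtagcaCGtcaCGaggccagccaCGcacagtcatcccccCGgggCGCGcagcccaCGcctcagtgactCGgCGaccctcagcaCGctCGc
Slc25a31: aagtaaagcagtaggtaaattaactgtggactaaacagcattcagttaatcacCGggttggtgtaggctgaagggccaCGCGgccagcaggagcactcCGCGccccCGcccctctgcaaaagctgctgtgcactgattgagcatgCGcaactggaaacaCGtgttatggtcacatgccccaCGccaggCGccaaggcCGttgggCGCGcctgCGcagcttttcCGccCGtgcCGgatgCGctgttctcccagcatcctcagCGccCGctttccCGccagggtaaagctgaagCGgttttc
Hormad1: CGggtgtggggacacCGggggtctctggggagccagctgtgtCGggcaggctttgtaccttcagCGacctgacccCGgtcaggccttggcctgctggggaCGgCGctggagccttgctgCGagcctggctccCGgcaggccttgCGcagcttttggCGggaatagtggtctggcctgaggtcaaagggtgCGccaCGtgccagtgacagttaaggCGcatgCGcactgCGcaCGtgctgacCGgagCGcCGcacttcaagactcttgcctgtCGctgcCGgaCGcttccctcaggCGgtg
Methylation itself was not measured on these arrays. The letters describe the window only, and Dazl, the member with the largest difference, holds neither motif in it.

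Oocyte and early embryo genes, a list that shares no measured gene with the germline list, were higher in 7 of 16 cases (43.8%) and lower in 0, with a median of 0.73. Usp17la, a deubiquitinase gene, read 8.0 and 10.29, Nlrp4f 8.09 and 10.37, Khdc3, a part of the maternal complex of the oocyte cortex, 9.93 and 11.70, and Zp3, a protein of the egg coat, 7.07 and 8.74. Nlrp14, Crxos and Gdf9 differed by 1.42, 1.32 and 1.17. Their promoters held few CpGs, with a median of 2 over the 5 higher genes that have a promoter in the table, against 22 for the higher germline genes. The ranges overlapped, at 0 to 7 and 0 to 38, and the germline genes Magea5 and Tex19.2 held 0 and 2. Of 10 measured Rhox and other X-linked reproductive genes, Rhox6, Rhox9 and Fthl17a (9.73 and 7.28) were lower and Usp26 (7.02 and 8.69) was higher. The X-linked genes Magea5 and Taf7l, which stand in the germline list, were higher as given above, and Nxf2 differed by 0.98. Rhox5 differed by 0.36.

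Genes that act on DNA methylation and on chromatin silencing were read as separate lists. Of 22 in the methylation list 1 was higher, Tet1, which encodes an enzyme that oxidises methylcytosine (10.73 and 12.30, 2.97-fold, 3 other probe sets between 1.39 and 2.01). Tet2 differed by 0.74 (1.75 at its other probe set), Dnmt3l, a cofactor of the de novo enzymes, by 0.90, after 2.14 at day 4, Uhrf1, the partner that brings DNMT1 to hemimethylated sites, by -0.29 and Uhrf2 by -0.96, with its other probe set at 0.91. In the chromatin silencing list 25 of 33 genes lay above 0 and 4 were higher (12.1%): Dppa2, the Polycomb subunit L3mbtl2 (9.80 and 10.93), Morc1 and Morc3. E2f6, which works in the same complex, differed by -0.81.

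Metabolic genes separated by pathway. In the glycolysis and hypoxia list 14 of 37 genes were lower (37.8%) and 1 higher, with a median of -0.60. Ldha, lactate dehydrogenase, read 14.34 and 12.28 (4.17-fold), after 14.60 and 14.17 at day 0 and 14.79 and 14.40 at day 4. Tpi1 read 13.91 and 11.89 with 2 other probe sets at -1.93 and -1.83. Pfkl read 11.80 and 9.73, but its 2 other probe sets differed by -1.66 and -0.05. The lactate exporter Slc16a3 read 8.64 and 6.21. Pgk1, Aldoa, Pkm and the glucose transporter Slc2a1 differed by -1.34, -1.06, -1.01 and -1.02. Among known targets of the hypoxia factor HIF in this list, Car9, a carbonic anhydrase, was lower by at least 2.23 in size. Adm differed by -1.52, Egln3 by -1.48, Bnip3 by -1.22 and Vegfa by -0.42. The demethylase Kdm3a, also a target, was the 1 higher gene of the list (1.41). Hif1a itself differed by 0.13. No gene of this list had been 2-fold apart at day 0 or day 4. Of the genes of oxidative phosphorylation 0 of 46 were 2-fold apart, with a range from -0.44 to 0.58, and 0 of 29 cytoplasmic ribosomal proteins and 0 of 34 cell cycle genes. The median levels of these 3 lists on the full-length day 7 array were 13.1, 14.93 and 12.04, in the class of highest signal. In that class few genes were apart, 104 higher and 141 lower of 4426.

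Cholesterol synthesis and uptake genes were lower in 14 of 24 cases (58.3%) and higher in 0, and 22 lay below 0, with a median of -1.06. The desaturase genes Scd1 and Scd2 read 11 and 8.82, and 12.79 and 11.39. Hmgcs1, the enzyme ahead of the rate-limiting step of the mevalonate pathway, read 13.66 and 12.37 with 3 other probe sets between -0.93 and -0.87, Sqle, squalene epoxidase, 12.13 and 10.88, and Dhcr7, the last enzyme of the pathway, 10.38 and 8.79. Msmo1 read 13.25 and 11.65, but its other probe set differed by 0.04. Srebf2, the transcription factor of the pathway, differed by -0.78, Fasn by 0.24. In this list the difference was present at day 4, where 11 genes were lower and the median was -0.90, and absent at day 0 (median -0.04). In the fatty acid oxidation list Cpt1a and its partner, the carnitine carrier Slc25a20 (11.93 and 12.95), were higher, and Decr1, Acsl3 and Crat were lower, of 25. Other probe sets differed by 0.94 for Slc25a20, -0.84 for Decr1, -1.05 and -0.28 for Acsl3 and -0.23 for Crat. Cpt1a was already apart by 2.70 at day 4 and 1.27 at day 0.

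Genes of the integrated stress response, the pathway in which phosphorylation of the translation factor eIF2 leads to synthesis of the transcription factor ATF4, were higher in 13 of 32 cases (40.6%) and lower in 0, with a median of 0.72. Atf4 itself differed by 1.2 and Atf5 by 1.29. Among their targets, Nupr1 was apart on all 3 days (2.30, 1.79 and 3.01), and Chac1, which degrades glutathione, read 8.22 and 10.35 at day 7. Cth, an enzyme of cysteine synthesis, read 10.58 and 12.37, Herpud1, of protein degradation at the endoplasmic reticulum, 8.34 and 9.82, Trib3 8.23 and 9.59 and Sesn2 8.43 and 9.80, with Sesn2's other probe set at 0.43. The amino acid carriers Slc7a1, Slc7a11 and Slc7a3 differed by 1.33, 1.08 and 1.00, Mthfd2 by 1.16 and Aars by 1.06. Asns, Ddit3 and Hspa5 differed by 0.45, 0.68 and -0.14, so neither all ATF4 targets nor the chaperone of the unfolded protein response were apart. The list's median was 0.16 at day 0 and -0.04 at day 4. The Sesn2 gene was also the 1 higher gene among 23 p53 targets, where Cdkn1a differed by 0.26 and Mdm2 by 0.38.

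The promoters of 3 of these genes are printed for the element TGATGNAA, where ATF4 is known to bind with C/EBP partners. The element was chosen after the list results were seen. It was found on either strand in 10 of the 27 members with a promoter (37.0%) and in 6 of 11 higher ones (54.5%), against 2.76% of the measured genes, 5.54% of all higher genes and 4.51% of all genes. Capitals mark the element, which reads TTGCATCA on the strand of each of these 3 genes. It starts 110, 193 and 112 bases before the start site in Nupr1, Chac1 and Herpud1. The windows lie at chr7:126625421-126625720 on the minus strand (Nupr1), chr2:119350992-119351291 on the plus strand (Chac1) and chr8:94386179-94386478 on the plus strand (Herpud1).
Nupr1: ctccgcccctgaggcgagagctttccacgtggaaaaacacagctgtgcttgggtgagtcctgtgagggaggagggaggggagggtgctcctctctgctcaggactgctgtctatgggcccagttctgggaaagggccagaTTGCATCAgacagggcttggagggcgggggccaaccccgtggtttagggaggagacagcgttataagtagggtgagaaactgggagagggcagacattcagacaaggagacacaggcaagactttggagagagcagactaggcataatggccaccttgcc
Chac1: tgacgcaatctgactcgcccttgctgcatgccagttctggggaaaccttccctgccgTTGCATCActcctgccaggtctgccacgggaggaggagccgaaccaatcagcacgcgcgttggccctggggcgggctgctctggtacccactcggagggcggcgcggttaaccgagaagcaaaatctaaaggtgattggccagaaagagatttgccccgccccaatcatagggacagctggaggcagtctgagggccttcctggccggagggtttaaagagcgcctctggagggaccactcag
Herpud1: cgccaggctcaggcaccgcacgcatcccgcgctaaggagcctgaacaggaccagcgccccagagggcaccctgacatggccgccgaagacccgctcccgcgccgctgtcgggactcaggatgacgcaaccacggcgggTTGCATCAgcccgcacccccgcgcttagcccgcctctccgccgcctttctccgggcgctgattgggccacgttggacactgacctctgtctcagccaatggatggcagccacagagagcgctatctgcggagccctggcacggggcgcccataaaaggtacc
Atf4, Atf5, Sesn2, Mthfd2 and Slc7a1 hold no such letters in the windows given, and a match is a description, not a bound site. The sterol element TCACNCCAC, also chosen after the lists were read, was in 1 of 18 promoters of the cholesterol list (5.56%), against 1.46% of the measured genes.

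Interferon and nucleic acid sensing genes went both ways, with 8 of 35 lower (22.9%), 4 higher (11.4%) and a median of -0.01. The lower ones included the class I antigen genes H2-D1 (11.96 and 9.99) and H2-K1 (12.44 and 10.78), B2m (-1.19), and the antiviral genes Rsad2 (9.10 and 7.16), Ifit2, Irf7, Usp18 and Bst2. H2-D1 and H2-K1 are close relatives, and the 5 other H2-D1 probe sets ranged from -2.36 to 0.26. The higher ones were Xaf1 (7.53 and 9.90), Zbp1, a sensor of Z-form nucleic acid (6.23 and 7.86), Ifi35 (1.22) and Mavs, the adaptor of the RNA sensors (1.01). Of the immediate early genes Myc (10.27 and 8.61) and Fos (10.75 and 9.52) were lower, 2 of 21. Of 15 genes of metallothioneins and zinc transport, the transporters Slc39a8 (10.52 and 8.37) and Slc30a3 (8.68 and 6.95) were lower. HOX genes were near the floor, with 1 of 14 higher (Hoxb9) and 1 lower (Hoxb2).

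Markers of fibroblasts, which stem cell cultures can hold as feeder cells, moved with some of the higher genes. Of 25 measured genes of the fibroblast list 7 were higher (28.0%) and 2 lower: Lox, Col3a1 (5.52 and 7.96), Tnc (5.38 and 7.69), Postn (5.40 and 7.65), Ccl2 (6.25 and 8.44), Fbln2 (6.41 and 8.25) and S100a4 (5.77 and 7.53) against Fbln1 (-1.37) and Pdgfrb (-1.0). The other Col3a1 probe set lay at the floor in both lines. Of the 6 defining markers of the type 2 were higher, Col3a1 and Postn, and the other 4 were less than 2-fold apart: Col1a1 read 5.76 and 5.70, Col1a2 9.87 and 9.40, Thy1 7.06 and 7.08 and Dcn 7.25 and 7.31. The list's summed signal was 5367 on the full-length and 6883 on the deletion day 7 array, against 13891 and 26986 at day 0, when its median difference was 1.19. Part of the higher matrix genes, Lox among them, stand in this list, and the part of such cells in the result was not tested. Of 19 genes of mesenchymal transition Cdh11 and S100a4 were higher and Cdh2, Mmp2 and Tgfbi lower. The other Cdh11 probe set differed by 0.0 and those of Tgfbi ranged from -1.49 to 0.0. Those of Cdh2 and Mmp2 differed by -1.36 and -2.2. Macrophage and lysozyme genes, 12 of which had been higher at day 0 with a median of 1.56, had 0 of 16 genes apart at day 7, a median of 0 and summed signals of 2237 and 1976. The list's median levels at day 7 were 5.78 and 5.47, near the floor of 5.37, which limits the differences that could be seen.

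**Figure D5:**
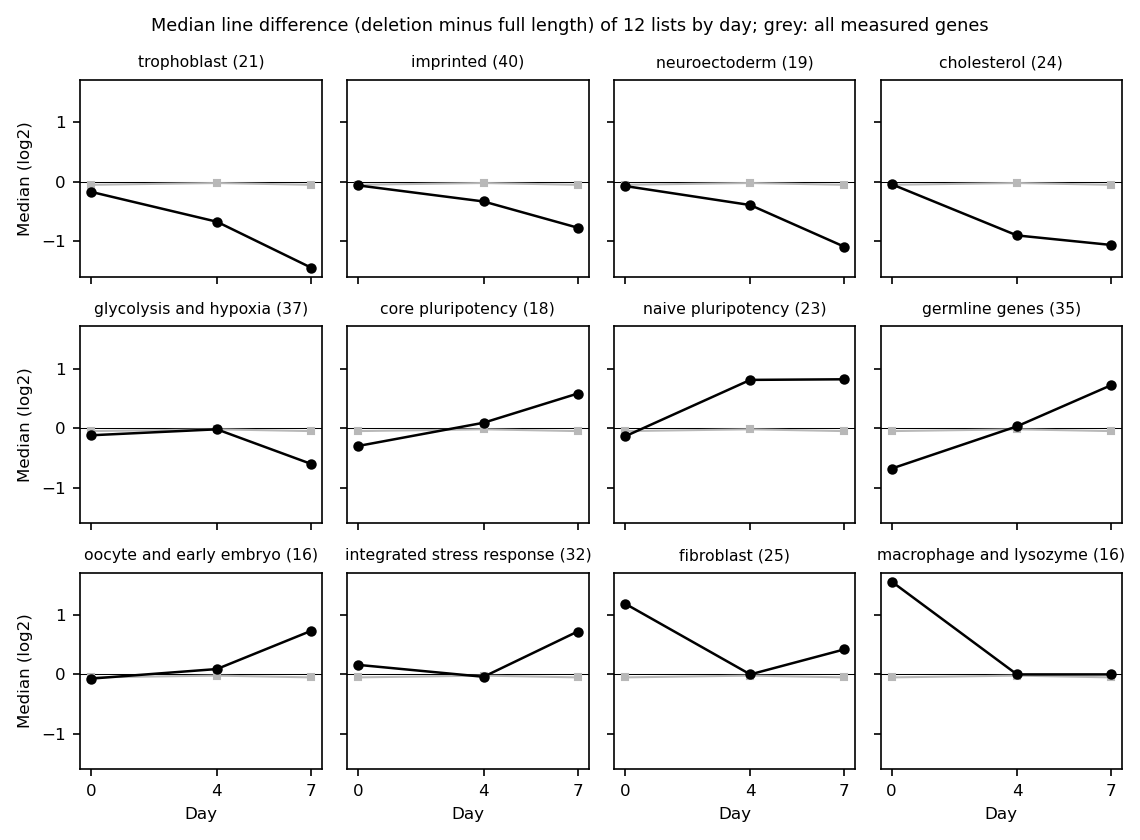
Median line difference of 12 lists (deletion minus full length, log2, vertical; number of measured genes in brackets) at days 0, 4 and 7 (horizontal), 1 pair of arrays a day, in black, with the median of all measured genes in grey. The trophoblast, imprinted and neuroectoderm medians run from -0.17, -0.06 and -0.07 at day 0 to -1.44, -0.77 and -1.09 at day 7, the germline median from -0.68 to 0.72, and the naive and cholesterol medians at day 7 are within 0.2 of those at day 4.

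The line difference was also read by chromosome, a look chosen after other results were seen. RefSeq placed 13258 measured genes, and the 20 chromosomes that held most of them were compared. Chromosome 11 stood apart from the other 19 at day 7. Its 1097 genes had a median difference of 0.15, against -0.13 to -0.02 on the others, and 665 of them (60.6%) were above 0, against 39.1% to 47.3%. At day 0 its median was -0.18, against -0.08 to 0.01, and at day 4 -0.07, within the -0.10 to 0.04 of the others. Of its genes 66 were higher (6.02%) and 74 lower (6.75%), so it held 12.6% of all higher and 6.25% of all lower genes with 8.26% of the genes. Without chromosome 11, 458 of 12180 genes were higher (3.76%) and 1110 lower (9.11%). The largest move of a list median was 0.19, of the keratins, to -1.17. Single arrays were also read against each gene's mean over the 6 arrays, with each array centred on its median. The median of chromosome 11 was then 0.22 on the deletion day 7 array and 0.01 on the full-length one. At days 0 and 4 the chromosome 11 median was -0.09 and -0.12 in the deletion line, and 0.04 and -0.05 in the full-length line. Those of the other chromosomes ranged from -0.1 to 0.11 over all arrays, so the -0.12 also lay outside this range. Each gene's mean includes the deletion day 7 array, so the values of the 6 arrays are not independent. List members on chromosome 11 were not marked above, and their part in each list's count was not tested.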

How the data were processed

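RNA of 6 cultures was read on Affymetrix mouse arrays, 1 array a culture. The deposited values are log2 signals of 45037 probe sets made by the authors with MAS5, per the submitters' processing notes. For the MAS5 version, scaling target and log base, nothing is stated in the labels. Base 2 was inferred because, back on the linear scale, every array has a trimmed mean signal of 496.7 to 496.9. Values under a floor, the 40th percentile of all values (signal 41.2), were set to it.

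Probe sets were named through an array annotation dated 2016: 34945 had 1 gene symbol, 932 several and 9160 none. Each gene is represented by the probe set that was brightest on average over the 6 arrays, and other probe sets above the floor were kept to show agreement. A gene was 2-fold apart where the brighter array was also at least 2 times the floor. With 1 array a line and day no test was possible, so no p-value is given and differences have no replicate check.

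Named genes were the 3 Dnmt genes, the 15 largest differences each way, up to 6 per list, up to 10 each way that differed at day 7 and not earlier, up to 5 per array seen on that array alone, and cell type markers. Other list members, named to complete a count, were chosen after their values were seen. The members, lists and motifs were chosen with earlier results of these data known. The TGATGNAA and TCACNCCAC motifs and the look by chromosome were added after seeing the data. Promoters and chromosomes are from RefSeq (GRCm38.p6), matched by symbol.

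Python 3.11.15, pandas 2.3.3, numpy 2.4.6 and matplotlib 3.10.9 were used, and the counting was tested on simulated data. Alternatives were the choice of probe set, the floor, the addition of the floor to the signal, the scaling between arrays, agreement of probe sets, the filter on dim genes, the fold and leaving out chromosome 11.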

Additional observations from a re-analysis of the deposited data

Results flagged for a closer look

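Some named genes were at least 2-fold apart at day 7 in the direction opposite to an earlier day. Each value is 1 array against 1 array, and the difference between the days was not tested.

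Lower at day 7 after being higher earlier were Ascl2 (1.78 at day 0 and -2.18 at day 7), Cdh2 (1.3 and -1.89), Fst (1.42 and -1.08) and Tgfbi (1.39 and -1.12), all against day 0. Against day 4 these were Gbx2 (2.09 and -1.94) and Hes7 (1.52 and -1.02).

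Higher at day 7 after being lower at day 0 were Msc (-1.2 and 2.62), Nlrp4c (-1.37 and 1.48), Smc1b (-2.14 and 1.59) and Xaf1 (-1.17 and 2.37). Against day 4 these were Col3a1 (-1.15 and 2.44), Lefty2 (-1.26 and 1.9), Pmepa1 (-1.02 and 1.21) and Pramel18 (-1.28 and 2.73). Lefty1 was lower on both earlier days (-1.23 and -1.92) and higher at day 7 (1.66), as were Usp17la (-1.05, -1.85 and 2.29) and Zbp1 (-1.96, -1.95 and 1.63).

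Probe sets outside the gene comparison also differed at day 7. Of 2695 measured probe sets with no gene symbol 162 were higher (6.01%) and 93 lower (3.45%), so more were higher than lower, unlike the named genes. Of 655 with several symbols 40 were higher (6.11%) and 30 lower (4.58%).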

How the results depend on the processing

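The counts of 524 higher and 1184 lower genes depended most on the floor and on the fold. They were 1097 and 1989 with the floor at the 20th percentile, 328 and 691 at the 60th, 1419 and 2414 at 1.5-fold and 56 and 175 at 4-fold. Under the other alternatives they stayed within 1.5 times: 489 and 1043 with the mean of a gene's probe sets, 375 and 859 with the floor added to the signal, 653 and 937 with equal medians, 548 and 1073 after quantile normalization, 387 and 894 with agreeing probe sets only, 540 and 1206 without the filter on dim genes, and 458 and 1110 without chromosome 11. The list medians that changed sign were all near 0: cell cycle 0.01 with the mean of probe sets, interferon 0.07 at the 60th percentile floor, 0.09 with equal medians and 0.03 after quantile normalization, oxidative phosphorylation 0.01 with equal medians, and ribosomal proteins 0.06 with equal medians and 0.01 after quantile normalization. The oocyte and early embryo median moved from 0.73 to 1.42 at the 60th percentile floor. No named gene 2-fold apart changed direction with equal medians, quantile normalization, the mean of probe sets or the floor added to the signal, and the differences of 17 named genes moved by over 1.5-fold with the mean of probe sets and of 20 with the floor added to the signal. Equal medians moved the median of all genes from -0.05 to 0.04. The cause of these moves was not tested. No paired analysis was possible because each line has 1 array a day. Genes at the floor on an array give bounds only.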
